A study of Mus musculus with 6 samples.

Results

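The ATP-binding cassette (ABC) transporters were examined in LSK cells, the lin- Sca1+ c-Kit+ bone marrow cells among which the stem and multipotent progenitors of blood are found. Members were all genes whose symbol is Abc, a letter from a to g and a number. Each was read from the brightest of the probe sets assigned to that gene alone, by the mean over all arrays. The rule gave 45 of 18193 genes, with 92 probe sets between them.

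LSK cells had been sorted from C57BL/6 mice aged 6 to 7 weeks that were IkL/L mutant or wild type (WT), with 3 arrays per genotype. IkL/L mice carry a hypomorphic mutation of Ikzf1 in all cells, which leaves little of the Ikaros transcription factor and later leads to T-cell leukaemia, so that an effect within LSK cells cannot be told apart from one of their surroundings. Each IkL/L sample was pooled from 2 mice and each WT sample came from 1 mouse, so genotype and pooling cannot be told apart either. Total RNA (100 ng) was amplified over a two-cycle labelling and hybridised to Affymetrix mouse arrays, and values are log2 expression after robust multiarray averaging (RMA).

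ABC transporters bind ATP and, in most cases, use it to move a substrate across a membrane. The substrates range from drugs, conjugates and haem precursors to sterols, phospholipids and fatty acids, while the E and F subfamilies lack membrane domains and act on ribosomes and translation. In blood-forming tissue the family is best known for the efflux pumps of stem cells, as Abcg2 and P-glycoprotein expel fluorescent dyes. Dye efflux by Abcg2 is the property by which the side population of stem cells is sorted. Abca1 and Abcg1 limit the cholesterol content of progenitor membranes.

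Few members of the family passed the test when Ikaros was low, and those that did were higher in IkL/L cells. After adjustment over all 45037 probe sets in limma, Abca9 and Abcc3 rose, which is 2 of 45 members (4.44%) against a background of 0.748% of all genes called higher. No member fell, where 0.242% of all genes were called lower. At an unadjusted p under 0.05, 7 members were higher (Abca9, Abcc3, Abcb1a, Abcc4, Abcd2, Abcb6 and Abcb4) and 0 were lower, or 15.6% and 0% of members, beside 5.83% and 5.35% of all genes. Written as IkL/L minus WT, the log2 fold change had a median of 0.08 over members, with quartiles of -0.05 and 0.28, and -0.02 over all genes.

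In some members the 3 values of one genotype lay above all 3 of the other. They were higher in IkL/L in 7 members (15.6%, background 7.62% of genes), which were Abca9, Abcc3, Abcb1a, Abcc4, Abcb6, Abcb4 and Abcc2. They were lower in IkL/L in 2 members (4.44%, background 9.59%), Abcc8 and Abcc9. The fold change was above 0 in 29 of 45 members, or 64.4%, where 44.5% of all genes were above 0.

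WT 2 stood apart from the other arrays and was most often the lowest of them among members. It lay at 52.7 on the first principal component (39.3% of the variance), with WT 1 at 18.6, WT 3 at -3.60 and the IkL/L arrays between -28.0 and -19.6. WT 2 was the lowest of the 6 arrays in 17 members, or 37.8%, and in 21% of all genes. Without it, 25 of 45 members had a fold change above 0 (55.6%, beside 44.8% of all genes), and the member median was 0.05. The count above 0 was 26 without IkL/L 1, 26 without WT 3, and 29 to 31 without each of the others. At an unadjusted p under 0.05 in limma, 4 members were higher without WT 2, and also 4 without IkL/L 1. The count was 5 without IkL/L 2, 8 without WT 1, 9 without IkL/L 3 and 9 without WT 3. Members lower at that threshold numbered 2 without IkL/L 3 and 0 without any other array. The share of all genes at this threshold was not computed for these fits, so the counts have no background beside them. As a check of the labels, Ikzf1 read 10.77, 10.85 and 10.93 in IkL/L cells and 11.57, 11.59 and 11.44 in WT cells, so that every mutant sample was lower.

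**Figure D1:**
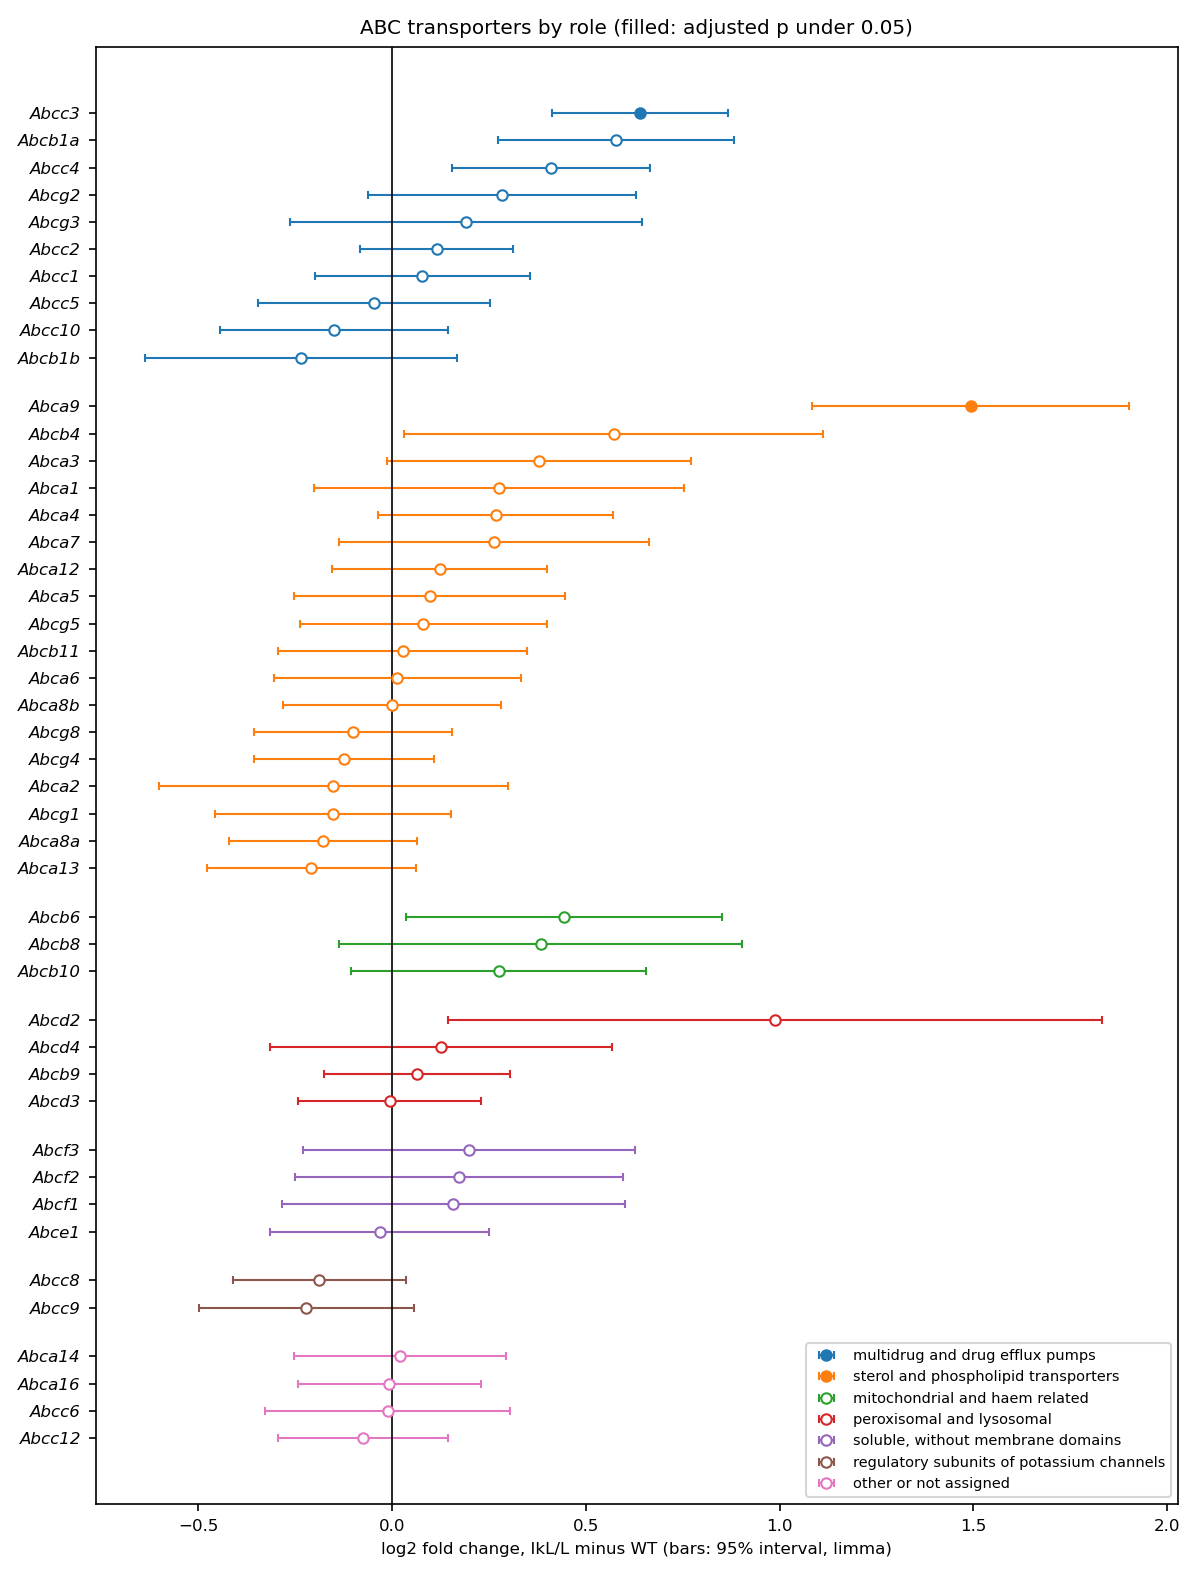
Horizontal axis, log2 fold change of IkL/L over WT for the 45 ABC transporters, grouped and coloured by role. Bars are 95% intervals from limma over 3 arrays per genotype, and filled points had an adjusted p under 0.05, which were Abcc3 at 0.64 and Abca9 at 1.49.

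RMA values carry no detection call, and a value near or below the middle of an array cannot be told from background. The array medians lay between 4.79 and 4.88. By that measure 26 members were above the array median on all 6 arrays, 15 on none, and Abca9, Abcc3, Abcd2 and Abcg3 on some. Among the 26, the median log2 fold change was 0.14, 17 were above 0 and WT 2 was the lowest array in 12. Abca9 alone of the 45 was above the median on every IkL/L array and on no WT array.

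Genes that mark blood lineages differed between the genotypes in the same samples. Those called higher in IkL/L cells were 3 of 8 for megakaryocytes, 3 of 7 for progenitors of granulocytes and monocytes, 2 of 7 for stem cells, 2 of 7 for the B lineage, 1 of 7 for mast cells and basophils and 1 of 8 for endothelium. Over all genes, 0.748% were called higher. Fold changes were below 0 in 1 of 8 megakaryocyte, 2 of 7 stem cell and 2 of 7 B-lineage genes. The same held for 1 of 7 mast cell and basophil genes and 1 of 8 endothelial genes. Among the stem cell genes, Hlf at -0.59 and Mecom at -0.47 were lower without overlap, while Fgd5 and Tek were the 2 called. The mean over the megakaryocyte list ran from 8.48 to 8.81 on the IkL/L arrays and from 6.99 to 7.76 on the WT arrays, and that of the granulocyte and monocyte list from 11.86 to 12.30 in IkL/L and from 10.58 to 11.05 in WT. Erythroid markers averaged 7.83 to 8.37 in IkL/L and 7.29 to 7.42 in WT with 0 of 7 called, and Kit, Cd34 and Flt3, genes of LSK cells, averaged 10.90 to 11.18 in IkL/L and 11.32 to 11.58 in WT with 0 of 3 called. Of these 3, Flt3 alone lay apart between the genotypes, at a log2 fold change of -0.88. Kit at -0.13 and Cd34 at -0.08 overlapped. Stem cell markers averaged 8.25 to 8.92 in IkL/L and 8.13 to 8.41 in WT, B-lineage markers 5.70 to 6.05 in IkL/L and 5.17 to 5.30 in WT, mast cell and basophil markers 7.53 to 7.72 in IkL/L and 6.62 to 6.98 in WT, and endothelial markers 6.99 to 7.23 in IkL/L and 6.23 to 6.61 in WT. The lists without a call included macrophages (0 of 8, 4.83 to 5.22 in IkL/L and 4.81 to 5.29 in WT), stroma (0 of 8, 5.43 to 5.68 in IkL/L and 5.71 to 6.92 in WT) and T and NK cells (0 of 6, 5.80 to 5.89 in IkL/L and 5.78 to 5.86 in WT). In bulk samples a different mix of cells and a different amount of RNA per cell cannot be told apart, and the part of these lineages in the values of the transporters was not tested.

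Abca9 rose in IkL/L cells by the probe set read for it. It belongs to a cluster of A-subfamily genes on chromosome 11 whose substrates are little known and which are placed among lipid transporters by sequence. Its log2 values were 5.11, 5.42 and 5.82 in IkL/L cells and 3.93, 3.85 and 4.10 in WT cells. All IkL/L values exceeded all WT values, with the WT values at the level where background cannot be told from expression. The log2 fold change was 1.49 (95% interval 1.08 to 1.90, SE 0.18, adjusted p = 0.0154, limma). The call was lost without IkL/L 2 (adjusted p = 0.0604) and without WT 1 (adjusted p = 0.0970), while leaving out single arrays gave log2 fold changes of 1.31 to 1.66. The other probe set of Abca9 did not pass the test. It read 4.38, 4.31 and 4.81 in IkL/L and 4.30, 4.53 and 4.48 in WT, with a log2 fold change of 0.06 (adjusted p = 0.936, limma). The mean of both probe sets gave 0.78. The choice between them rested on the IkL/L arrays, where the probe set read averaged 5.45 and the other 4.50. On the WT arrays the other was the brighter, at 4.44 against 3.96, so the call depends on that choice.

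The genes on either side of Abca9 are its closest relatives, and none of them passed the test. In chromosomal order the log2 fold changes were 0.00 for Abca8b, -0.18 for Abca8a, 1.49 for Abca9, 0.01 for Abca6 and 0.10 for Abca5. Abca6, Abca8a and Abca8b lay below the array median on all 6 arrays, so a difference in them could not be told from one in background, while Abca5 lay above it on all 6.

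**Figure D2:**
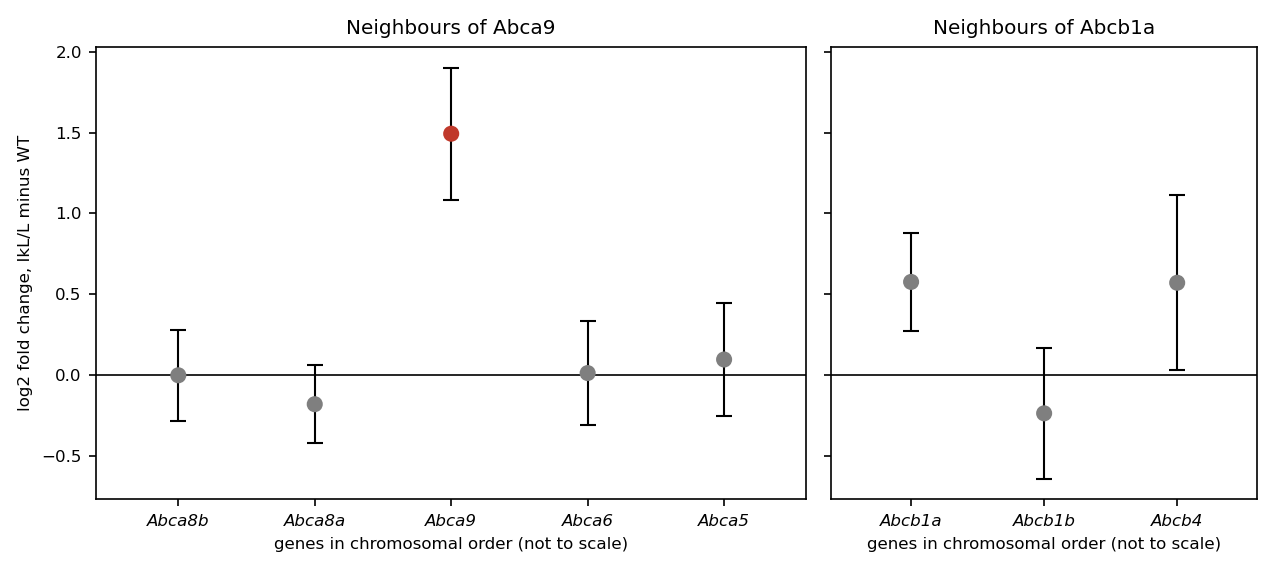
Log2 fold change (IkL/L minus WT) of Abca9 and Abcb1a and of the family members next to them, in chromosomal order and not to scale, with 95% intervals from limma (3 arrays per genotype). Abca9 stands at 1.49 among neighbours between -0.18 and 0.10, and Abcb1b at -0.23 lies between Abcb1a at 0.58 and Abcb4 at 0.57.

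The stretch upstream of Abca9 is shown because Abca9 is 1 of the 2 members called, and the letters AGGAA in it are those of the motif known for Ikaros. It covers the 129 bases before the outermost start of the gene in RefSeq (build GRCm38.p6), at chr11:110168275-110168403 on the minus strand, 5′ to 3′ along the gene, with AGGAA or its reverse complement TTCCT in capitals.
Abca9: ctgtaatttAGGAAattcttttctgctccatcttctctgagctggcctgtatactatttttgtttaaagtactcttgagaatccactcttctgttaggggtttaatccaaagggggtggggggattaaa
It held 1 match, as AGGAA, where 38.9% of 32851 RefSeq promoter windows held at least 1 in the 129 bases farthest from their start. The full window of 250 bases, which runs on into the annotated gene, held 4 matches. Of all windows, 2.72% held at least 4. A match is only a run of letters, and binding was not measured in these files.

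Drug efflux pumps came next, and 1 of the 10 measured passed the test. Abcc3, the pump MRP3 that exports glucuronides and bile acid conjugates, read 4.68, 4.89 and 4.70 in IkL/L cells and 4.11, 4.15 and 4.09 in WT cells. The genotypes did not overlap, but only 1 of the 6 values exceeded its array median. At that level a difference cannot be told from one in background. Its log2 fold change was 0.64 (95% interval 0.41 to 0.87, SE 0.10, adjusted p = 0.0416, limma), from the 1 probe set of the gene. The call rested on the full set of arrays: without any single array, of either genotype, the adjusted p lay between 0.0878 and 0.186 with log2 fold changes of 0.57 to 0.68.

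P-glycoprotein, the pump of many hydrophobic drugs, is encoded in the mouse by Abcb1a and Abcb1b, neighbours on chromosome 5 that are close paralogs. Abcb1a read 4.40, 4.78 and 4.65 in IkL/L and 4.15, 3.86 and 4.08 in WT. Every IkL/L value was higher, all 6 lay below the array medians, and the log2 difference of 0.58 (SE 0.13) missed the threshold (adjusted p = 0.158, limma). Its other probe set differed by 0.26 in the same direction (adjusted p = 0.613). Abcb1b lay above the median of every array. It read 7.83, 8.13 and 8.45 in IkL/L and 8.43, 8.14 and 8.55 in WT, with overlapping groups and a log2 fold change of -0.23 (95% interval -0.64 to 0.17, adjusted p = 0.766).

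How far the probes of one paralog also read the other was not tested, nor was the difference between their fold changes. The next gene along, Abcb4, is the phosphatidylcholine transporter of bile and the closest relative of the pair. It read 8.09, 8.80 and 7.80 in IkL/L and 7.80, 7.55 and 7.62 in WT, of which IkL/L 2 stood highest and IkL/L 3 and WT 1 nearly touched. Its log2 fold change was 0.57 (SE 0.23, adjusted p = 0.533), and 0.29 without IkL/L 2.

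The windows before the starts of Abcb1a and Abcb1b are shown to set the 2 P-glycoprotein genes side by side, marked as above. Each covers the 250 bases before the start of the gene, and they lie at chr5:8566841-8567090 and chr5:8797897-8798146, both on the plus strand.
Abcb1a: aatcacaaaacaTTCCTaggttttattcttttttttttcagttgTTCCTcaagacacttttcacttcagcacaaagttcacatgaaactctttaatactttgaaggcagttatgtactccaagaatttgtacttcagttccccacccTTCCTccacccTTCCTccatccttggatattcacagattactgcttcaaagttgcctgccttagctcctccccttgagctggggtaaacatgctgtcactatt
Abcb1b: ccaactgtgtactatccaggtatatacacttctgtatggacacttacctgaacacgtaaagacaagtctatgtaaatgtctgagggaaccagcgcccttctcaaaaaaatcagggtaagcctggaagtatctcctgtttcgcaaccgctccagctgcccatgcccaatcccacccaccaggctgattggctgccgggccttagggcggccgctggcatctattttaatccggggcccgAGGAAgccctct
Abcb1a held 4 matches, all as TTCCT, and Abcb1b held 1, as AGGAA near its start. Over windows of this length, 2.72% held at least 4 matches and 60.3% at least 1. Windows were given for 35 members, without Abcc3 and Abcd2.

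Abcg2, whose dye efflux defines the side population and which also exports porphyrins, did not pass the test. It read 9.94, 10.25 and 9.79 in IkL/L cells and 9.50, 9.76 and 9.87 in WT cells. The groups overlapped through IkL/L 3 and WT 3, and the difference of 0.28 had a 95% interval of -0.06 to 0.63 (1.22-fold, adjusted p = 0.660, limma). A change of up to 0.63 on the log2 scale therefore lies within the interval.

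The other pumps of the C subfamily gave no call. Abcc4, or MRP4, an exporter of cyclic nucleotides and prostaglandins, read 9.79, 9.96 and 10.11 in IkL/L and 9.57, 9.46 and 9.60 in WT. The groups were apart and the spread small, and the log2 fold change was 0.41 (1.33-fold, SE 0.11, adjusted p = 0.258, limma). Abcc1, or MRP1, which exports glutathione conjugates and leukotriene C4, read 9.83, 10.16 and 10.02 in IkL/L and 10.06, 9.87 and 9.84 in WT, a difference of 0.08 (adjusted p = 0.897) whose sign turned without IkL/L 2. A dimmer probe set of Abcc1 differed by 0.65, with WT 2 at 4.94 while the other 5 arrays lay between 6.48 and 7.18 (adjusted p = 0.763). Abcc5, or MRP5, also an exporter of cyclic nucleotides, read 7.78, 7.997 and 7.58 in IkL/L and 7.70, 7.91 and 7.88 in WT, and its 10 probe sets gave -0.05 to 0.09. Over the 10 efflux pumps, 7 fold changes were above 0, the median was 0.15, and Abcb1b, Abcc10 and Abcc5 were below 0.

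**Figure D3:**
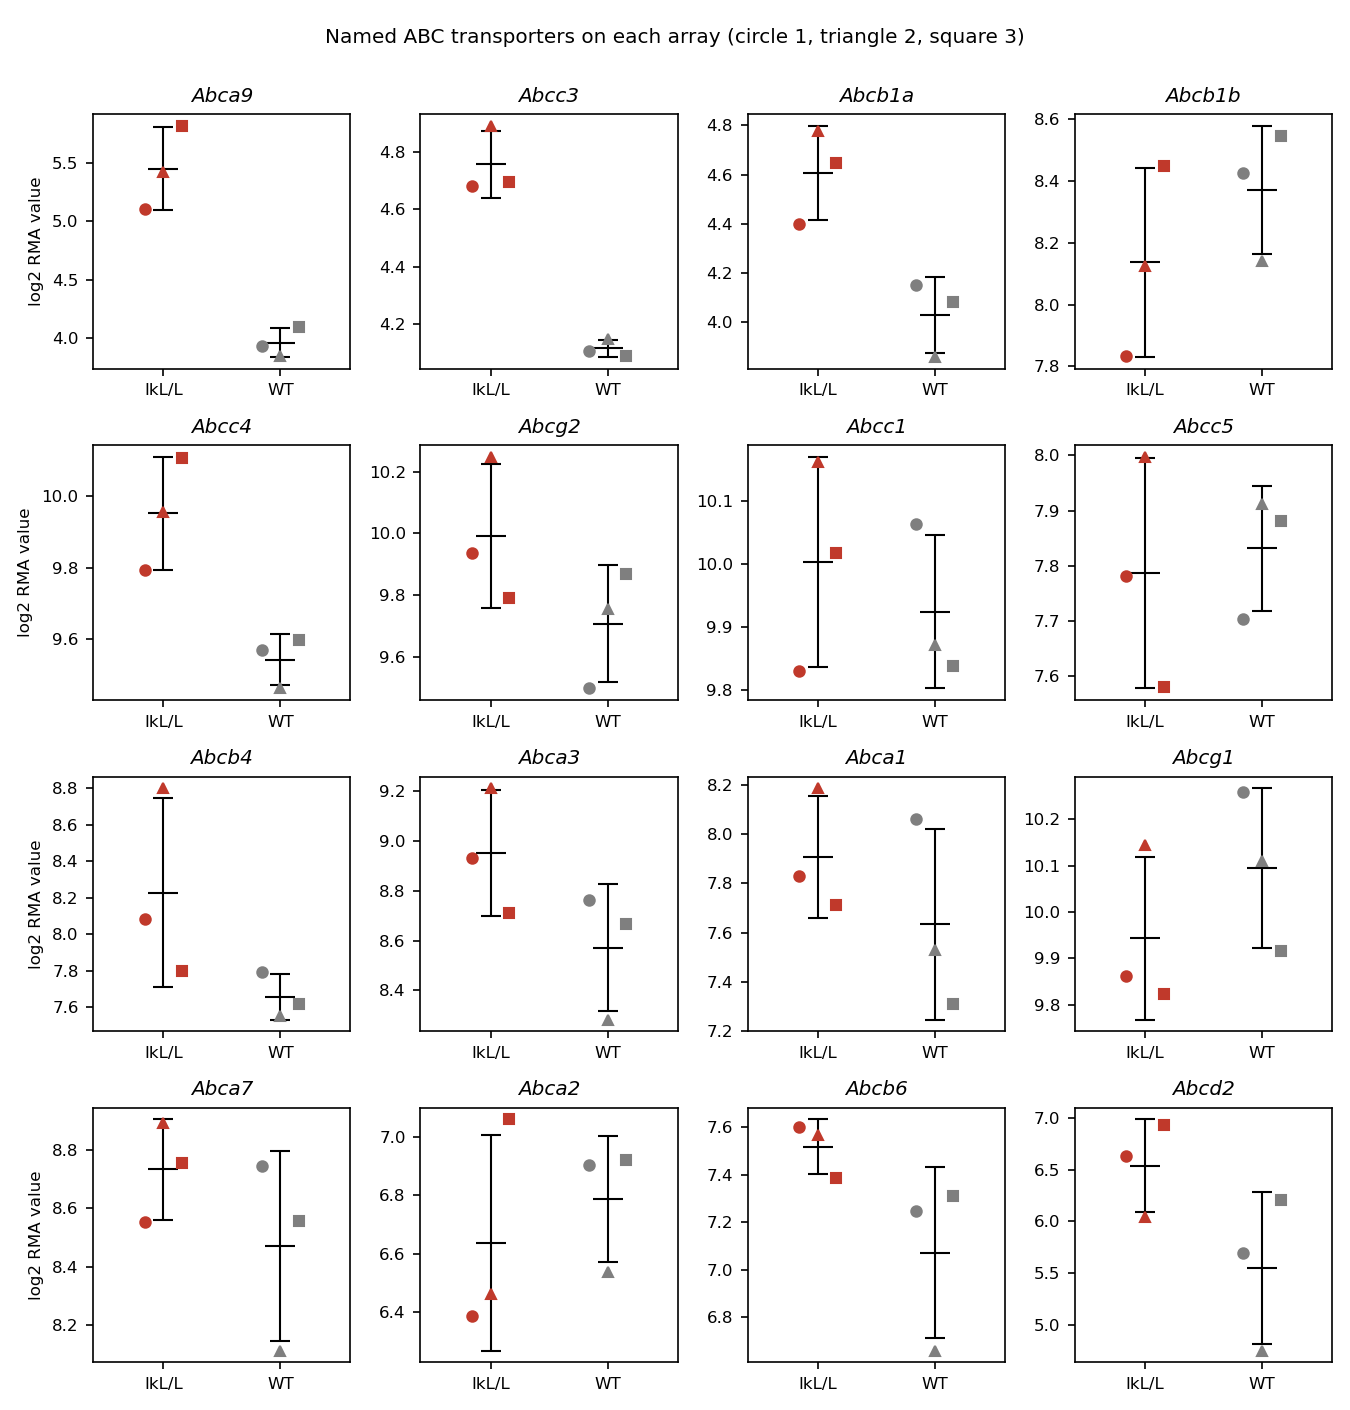
Log2 RMA values (vertical axes, each with its own range) of 16 named ABC transporters on every array, IkL/L left and WT right. Circle, triangle and square are replicates 1, 2 and 3, and horizontal lines with bars are mean ± SD; the genotypes do not overlap for Abca9, Abcc3, Abcb1a, Abcc4, Abcb6 and Abcb4.

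Among the 18 transporters of sterols and phospholipids, Abca9 alone passed the test. Fold changes were above 0 in 12 of the 18, with a median of 0.05. Abca1, which hands cholesterol and phospholipid to apolipoprotein A-I, read 7.83, 8.19 and 7.71 in IkL/L and 8.06, 7.53 and 7.31 in WT (log2 fold change 0.28, adjusted p = 0.769, limma). Abcg1, which passes cholesterol on to high-density lipoprotein, read 9.86, 10.14 and 9.82 in IkL/L and 10.26, 10.11 and 9.92 in WT (-0.15, adjusted p = 0.808). Both are targets of the sterol sensor LXR, their groups overlapped and their signs differed. The 95% intervals of -0.20 to 0.75 for Abca1 and -0.46 to 0.15 for Abcg1 leave room for either direction.

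Among the other lipid transporters, Abca3 came next after Abca9 and Abcb4 by the size of p. It loads phospholipid into the lamellar bodies of lung cells, and read 8.93, 9.21 and 8.71 in IkL/L and 8.77, 8.28 and 8.67 in WT (0.38, adjusted p = 0.585, limma), and 0.23 without WT 2. Abca7, a phospholipid transporter linked to phagocytosis, read 8.55, 8.89 and 8.76 in IkL/L and 8.74, 8.11 and 8.56 in WT (0.26, adjusted p = 0.734). In both genes WT 2 was the lowest array. Abca2, a transporter of late endosomes and lysosomes, read 6.39, 6.46 and 7.06 in IkL/L and 6.91, 6.54 and 6.92 in WT, where IkL/L 3 was the highest of all (-0.15, adjusted p = 0.875). Of the 18 in this group, 7 were at or below the array median on every array, where a difference cannot be told from one in background.

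The mitochondrial and haem-related transporters had fold changes above 0 in all 3 measured members, by the probe sets read, and gave no call. They had a median log2 fold change of 0.38, and their mean ran from 7.21 to 7.30 on the IkL/L arrays and from 6.52 to 7.20 on the WT arrays. Abcb6, a porphyrin transporter, read 7.60, 7.57 and 7.38 in IkL/L and 7.25, 6.66 and 7.31 in WT. The groups did not overlap, WT 2 was the lowest array, and the log2 fold change of 0.44 (SE 0.18, adjusted p = 0.516, limma) was 0.24 without WT 2. Abcb8, of the inner mitochondrial membrane, differed by 0.38 and Abcb10, which aids haem synthesis in erythroid cells, by 0.28, with adjusted p of 0.696 and 0.706. WT 2 was the lowest array for both, by the probe sets read. The other probe set of Abcb8, of similar brightness, differed by -0.04 (adjusted p = 0.958, limma), and its lowest array was IkL/L 2.

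None of the 4 peroxisomal and lysosomal transporters passed the test. Abcd2, which imports very long chain fatty acids into peroxisomes, read 6.64, 6.05 and 6.93 in IkL/L cells and 5.70, 4.75 and 6.20 in WT cells. IkL/L 2 lay below WT 3, so the groups overlapped, and WT 2 was by far the lowest. The log2 fold change was 0.99 (95% interval 0.14 to 1.83, SE 0.37, adjusted p = 0.472, limma), with 0.59 without WT 2 and 1.32 without WT 3. All 4 probe sets of Abcd2 were higher in IkL/L, by 0.22 to 1.21. In the one with the smallest p, IkL/L cells read 5.89, 5.50 and 6.50 and WT cells 4.69, 4.87 and 4.69, with no overlap and an adjusted p of 0.0839. The other 3 members differed less: Abcd4, which carries cobalamin out of lysosomes, by 0.13, the lysosomal peptide transporter Abcb9 by 0.07, and the peroxisomal Abcd3 by -0.01.

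The soluble members were low on WT 2, other than Abce1. Abcf1, a factor of translation initiation, read 10.99, 10.96 and 10.93 in IkL/L and 10.99, 10.32 and 11.09 in WT, so that 5 arrays lay close together and WT 2 below them. Abcf2 and Abcf3 had their lowest value on WT 2 likewise, with log2 fold changes of 0.17 and 0.20, and Abce1, which splits ribosomes after termination, differed by -0.03. None of the 4 passed the test. The 2 sulphonylurea receptor genes, Abcc8 and Abcc9, which regulate potassium channels, had log2 differences of -0.19 and -0.22 without overlap and lay under the array median on every array. Abca14, Abca16, Abcc6 and Abcc12 lay there as well, with log2 differences of -0.07 to 0.02.

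**Figure D4:**
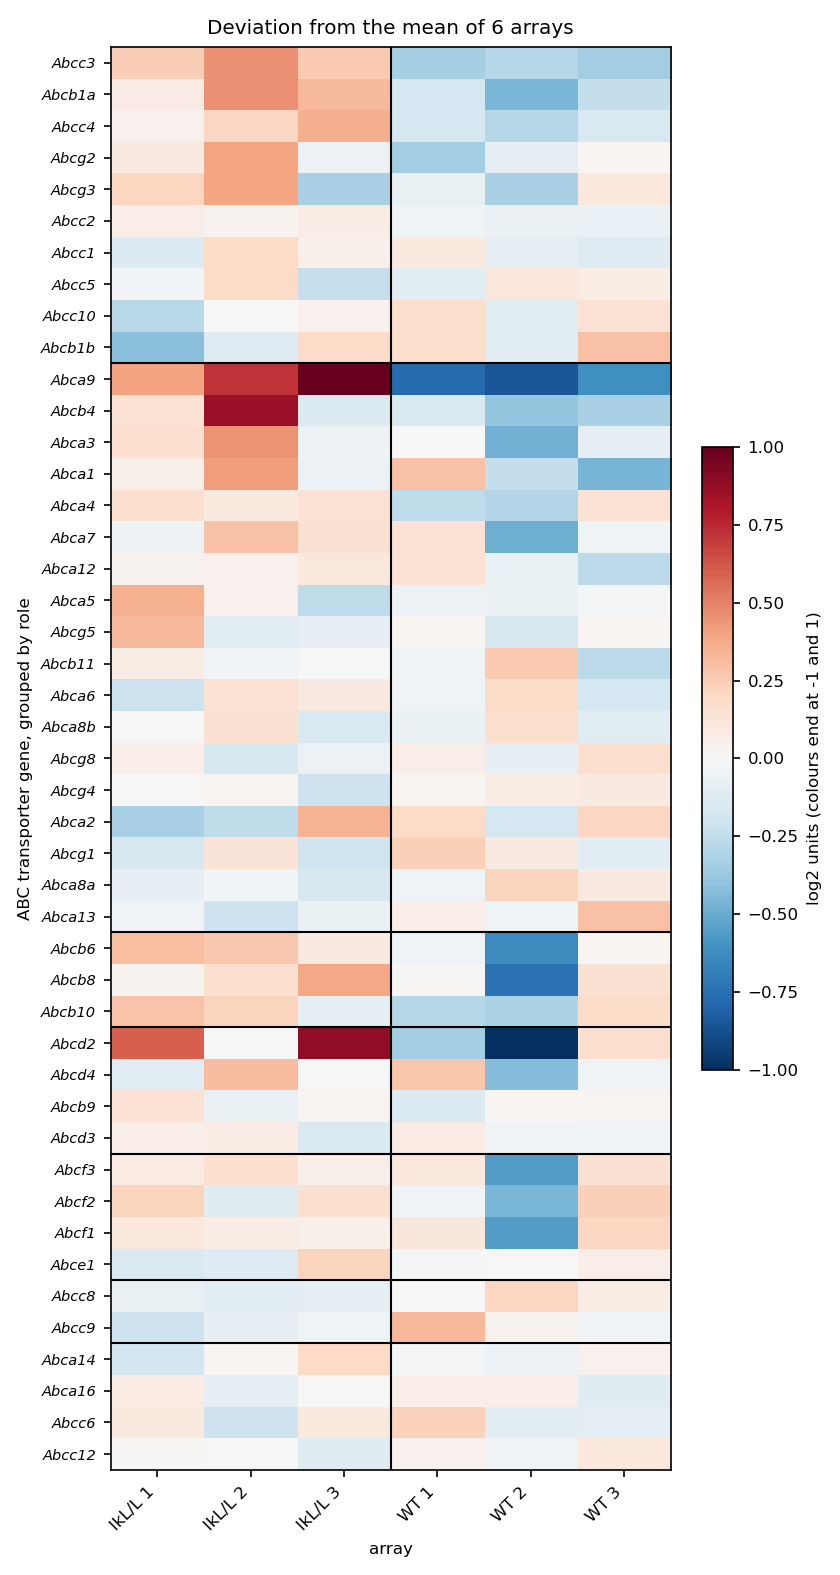
Each ABC transporter (rows, grouped by role) on each array (columns, IkL/L left of WT), as the deviation from its own mean over 6 arrays in log2 units, with colours ending at -1 and 1. Abca9 is high on all 3 IkL/L arrays and low on all 3 WT arrays, while Abcd2, the 3 mitochondrial members and Abcf1, Abcf2 and Abcf3 are lowest on WT 2.

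Probe sets of the same gene did not always give the same reading. Of 26 members with more than 1 probe set, 12 had all other probe sets on the same side of 0 as the one read. None of the 47 probe sets that were not read passed the test, where Abca9 and Abcc3 made up both of the calls among 92. The 6 probe sets of Abcf1 ran from -0.03 to 0.71.

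**Figure D5:**
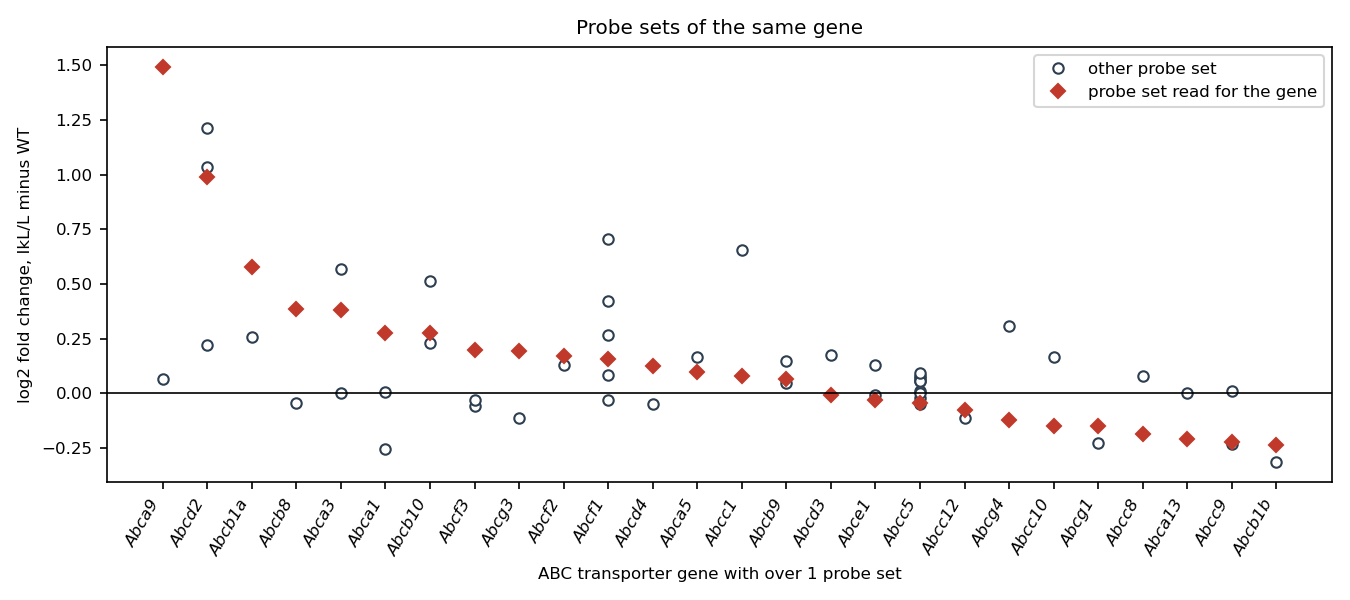
Log2 fold change (IkL/L minus WT, vertical axis) of every probe set of the 26 ABC transporters that have more than 1. Diamonds mark the probe set read for the gene and circles the others; those of Abca9 lie at 1.49 and 0.06, and all 4 of Abcd2 lie above 0.

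Genes that work beside the transporters gave no call in any of 6 lists. Among 9 ABC proteins with other symbols and partners the median log2 fold change was -0.02. Tap2, which carries peptides to MHC class I, read 9.75, 9.96 and 10.06 in IkL/L and 9.56, 8.97 and 9.67 in WT (0.52, adjusted p = 0.452, limma), and Lmbrd1, the lysosomal partner of Abcd4, differed by 0.30 (adjusted p = 0.601). Tap2 was again lowest on WT 2. Among 16 genes of sterol sensing the median was -0.04, with the LXR gene Nr1h3 at 0.34 (adjusted p = 0.444) and the desaturase gene Scd2 at -0.21 (adjusted p = 0.583).

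The lists next to the haem and drug pumps gave most fold changes above 0, where 44.5% of all genes were above 0. Of 14 genes of haem and iron-sulphur synthesis 11 were above 0 (median 0.16). Alas1, the first enzyme of haem synthesis, read 10.37, 9.83 and 10.35 in IkL/L and 9.18, 8.91 and 9.72 in WT, without overlap (0.91, adjusted p = 0.206), and Urod, a later enzyme of it, differed by 0.30 (adjusted p = 0.415). Of 16 genes of the drug and redox response 11 were above 0 (median 0.09). Aldh1a1, an aldehyde dehydrogenase by whose activity stem cells can be sorted, read 7.58, 8.39 and 7.04 in IkL/L and 6.50, 6.32 and 6.53 in WT (1.22, adjusted p = 0.188), and Gstm1, a glutathione transferase, differed by 0.77 (adjusted p = 0.289). Both were higher on each IkL/L array than on any WT array. WT 2 was the lowest array for Alas1, Urod, Aldh1a1 and Gstm1. Peroxisomal fatty acid oxidation (9 genes, median 0.06) had Amacr at 0.35 (adjusted p = 0.288) and Ppara at -0.15 (adjusted p = 0.738), and ribosome recycling (8 genes, median 0.02) had Hbs1l at 0.15 (adjusted p = 0.792) and Gcn1 at 0.17 (adjusted p = 0.863).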

How the data were processed

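The authors deposited log2 values of 6 arrays made with RMA (background correction, quantile scaling and a summary per probe set). RMA and R 2.8 are named in the submitters' processing notes. Per the study's methods these arrays were normalised jointly with arrays of thymocytes, and whether the deposited values stem from that run is not given in the sources used here. The platform annotation gave 1 gene for 34945 of 45037 probe sets and several for 932, and 9160 were not listed. Symbols were updated through a RefSeq table (GRCm38.p6), where 34741 matched by Entrez number.

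The genotypes were compared by limma 3.58.1 under R 4.3.3, using lmFit and eBayes with genotype as the single term. P-values are two-sided, adjusted by Benjamini-Hochberg across the 45037 probe sets and called under 0.05. The fit was tested on simulated data. No test across the list was made. Values on every array are given for members with an adjusted p under 0.05, for members with an unadjusted p under 0.05 and separate groups, and for a fixed set of efflux pumps and lipid transporters. Up to 3 members of each role group and 2 genes of each related list were added by smallest p, and a probe set, array value or gene outside this rule was chosen after its values were seen. The members and lists were chosen with earlier results of these data known. Promoter windows are from RefSeq, cut to the bases outside the annotated gene, with both strands searched for AGGAA. Samples were taken to come from separate mice, as replicates are numbered and mice per sample given, and 3 per group limit the precision. Alternatives were a repeated quantile normalisation, median centring, dropping dim probe sets at either of 2 levels, an intensity trend, array weights, a replicate block, averaging the probe sets of each gene, adjustment over 1 probe set per gene, and each array left out in turn.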

Additional observations from a re-analysis of the deposited data

How the results depend on the processing

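Under 15 alternatives, the direction of every called difference held, and 222 of the recomputed log2 fold changes of named members kept both direction and side of the threshold, 9 no longer passed and 3 changed sign. The exceptions follow, and the cause was not tested where none is given. Without 1 array at a time, the calls over all probe sets numbered 57 to 287 (251 with all arrays), the calls among ABC members 0 to 1, and the member median lay between 0.053 and 0.113. Both filters on dim probe sets left 0 members called higher because they removed Abca9 and Abcc3: 28 members were tested with a mean at or above the median and 24 with a mean of at least 6, with member medians of 0.165 and 0.186. Replicate numbers did not pair the samples, as deviations of same-numbered samples correlated at 0.0084, -0.112 and 0.0789. With the replicate block, 143 probe sets and 1 ABC member (Abca9) were called, and Abcc3 had an adjusted p of 0.116. Averaging the probe sets of Abca9 gave a log2 fold change of 0.778, still called. That average takes its difference from the probe set read, at 1.49, as the other was at 0.06 (adjusted p = 0.936, limma). Small differences changed sign: Abcc1 was at -0.000655 without IkL/L replicate 2 (up to 0.165 without others), and Abcc5 at 0.057 without IkL/L replicate 3 (-0.151 to 0.057 without single arrays) and at 0.026 with the mean of its probe sets. Rescaling the arrays moved the median of all genes by at most 0.0169. RMA gives no signal over background, so the dim members cannot be ranked.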

Other observations

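On chromosome 5, Abcb1a differed by 0.58, and the measured genes near it other than Abcb4 (0.57) had log2 fold changes of the other sign. This pattern was chosen after its values were seen. Over all genes, 44.5% of fold changes were above 0. Before Abcb1a come Slc25a40, a mitochondrial carrier gene, at -0.55 (adjusted p = 0.158, limma) and Rundc3b at -0.59 (adjusted p = 0.118), neither past the threshold, and after Abcb4 comes Crot, a peroxisomal carnitine acyltransferase gene, at -0.08 (adjusted p = 0.888). Around Abcd2 on chromosome 15, the measured neighbours ran from -0.09 for Smgc to 0.44 for Lrrk2, with adjusted p of 0.826 and 0.387, and around Abcc3 on chromosome 11 from -0.19 for Ankrd40 to 0.11 for Epn3, with adjusted p of 0.613 and 0.800.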
